A study of Mus musculus with 12 samples.

Results

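The genes described here are 10 genes of nitric oxide, arginine and polyamine metabolism, *Nos2*, *Gch1*, *Ass1*, *Asl*, *Slc7a1*, *Slc7a2*, *Arg1*, *Arg2*, *Odc1* and *Sat1*, out of 32301 genes or transcripts on the array. They were chosen by what their products do, with earlier results of these data known. Their transcripts were measured in bone marrow-derived macrophages (BMDMs) of C57BL/6 mice 8 weeks of age, either wild-type (WT) or *Keap1* flox/flox::*LysM*-Cre (KpCKO). In KpCKO mice the Cre recombinase is driven by the lysozyme M locus, so that *Keap1* is removed in myeloid cells, and Keap1 is the adaptor through which the transcription factor Nrf2 is degraded. All cells had been grown from bone marrow with M-CSF for 7 days, and the Con cells received nothing more. The M1 cells received LPS at 5 ng per ml together with IFNγ at 10 ng per ml, and the M2 cells IL-4 at 10 ng per ml, in both cases for 6 h. The experiment was run in 2 cultures, the first with male and the second with female mice, 1 of each genotype, so that the 12 arrays form 6 groups of 2. The 3 arrays of a genotype in a culture therefore share 1 mouse, and culture and sex cannot be told apart.

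Macrophages use arginine in competing ways. The inducible NO synthase turns it into nitric oxide and citrulline with tetrahydrobiopterin as cofactor, and citrulline can be rebuilt into arginine. Arginases split it instead into urea and ornithine, the precursor of the polyamines putrescine, spermidine and spermine. In mouse macrophages the synthase is a classical product of LPS and IFNγ, and Arg1 a classical product of IL-4.

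The level of a gene is given as the log2 intensity of its brightest probe less the log2 of the 75th percentile of its array, so that a level of 0 lies at that percentile, and levels of different genes are not compared. The 75th percentile of the signal ranged from 548 to 757 for WT M1, from 787 to 906 for KpCKO M1 and from 966 to 1166 for the remaining groups, and 59.5% to 71.6% of the probes were well above background. A gene was called changed where limma's adjusted p was under 0.05, over 22366 genes tested, with culture as a block. Every one of the 10 genes reached a signal well above background in 1 group or more, on both of its arrays. Each slide carried the 4 arrays of 1 stimulus, so that genotypes share a slide, but a stimulus and its slide cannot be told apart. *Keap1* was lower in KpCKO than in WT, with log2 differences of −1.46, −1.71 and −1.81 for Con, M1 and M2 (limma, adjusted p = 0.0336, 0.00771 and 0.0161), although without a single array the adjusted p rose to as much as 0.225, 0.0521 and 0.139. Whether its probe lies in the deleted part of the gene is not given in the sources used here, so the remaining signal says nothing of how complete the deletion was. *Nqo1*, the standard Nrf2 target, was higher by 3.23, 3.50 and 3.52 (limma, adjusted p = 6.9e-05, 6.8e-05 and 7.19e-05). Macrophage markers were well above background in every group (7 of 7 matched), and so were the 5 markers of stromal cells. Markers of other cell types were detected in part. Depending on the group, 6 to 8 of 9 neutrophil markers and 2 to 4 of 4 dendritic cell markers were well above background on both arrays. For mast cells and basophils it was 1 to 4 of 4, for B cells 2 to 3 of 4, for T cells 2 to 3 of 5 and for erythroid cells 0 to 1 of 3.

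**Figure D1:**
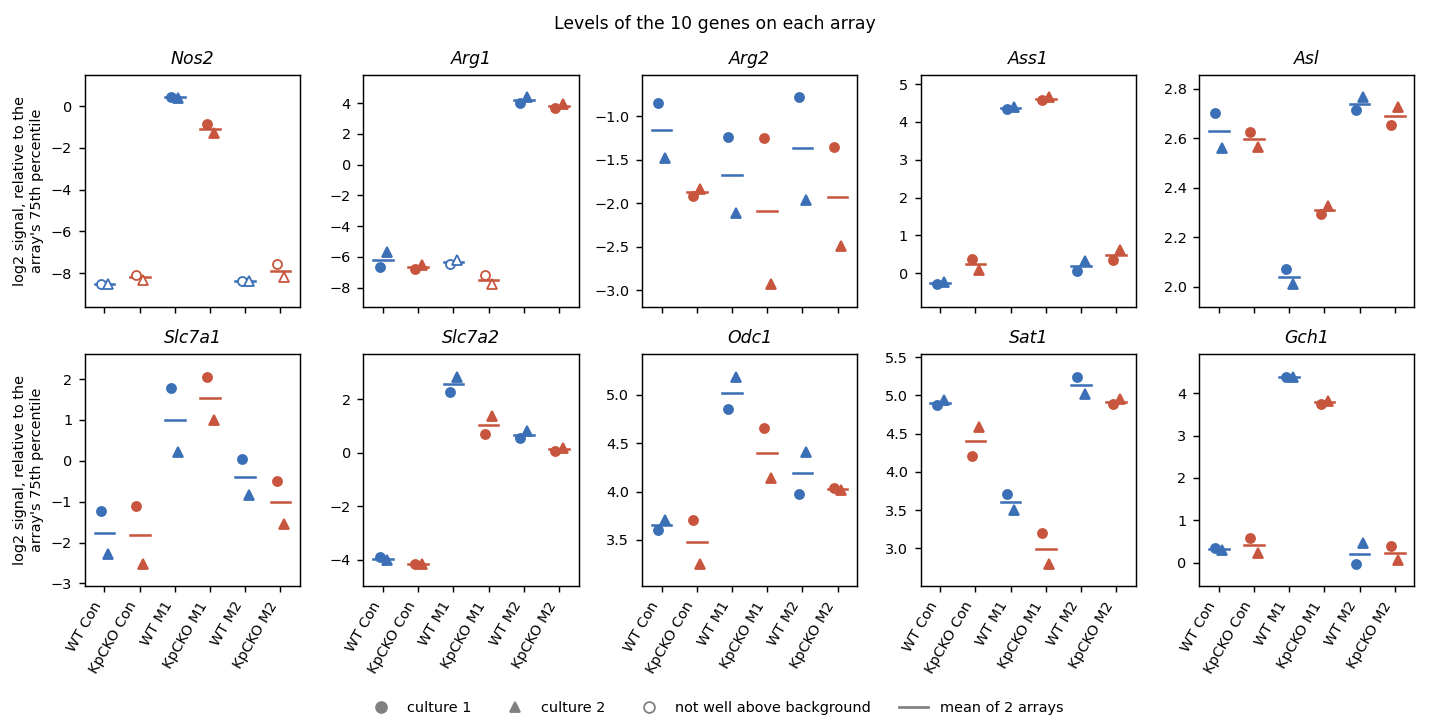
Level of each of the 10 genes on each of the 12 arrays, with 1 panel per gene. The vertical axis is the log2 intensity less the 75th percentile of the array, circles are arrays of culture 1 and triangles of culture 2, lines are the mean of the 2 arrays, and open points are arrays on which the probe was not well above background. *Nos2* rises above background only in M1, *Arg1* stands far above Con only in M2, and *Slc7a2* is raised by both stimuli.

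Stimulation with LPS and IFNγ moved most of these genes, and moved them in both genotypes. In WT, 8 of the 9 genes with a measurable difference between M1 and Con changed, where 63.2% of all genes tested did. The 6 that rose were the NO synthase gene *Nos2*, its cofactor gene *Gch1*, the recycling gene *Ass1*, both cationic amino acid transporter genes *Slc7a1* and *Slc7a2*, and the polyamine synthesis gene *Odc1*, against a share of 34.5% of all genes that rose. *Asl* and *Sat1* fell, against 28.7% of all genes. Under quantile normalization the balance of all genes turned, with 6551 higher and 7937 lower. The 9 genes had a median log2 difference of 2.75, against 0.13 for all genes. In KpCKO the count was again 8 of 9 with 6 higher and 2 lower, where 50.2% of all genes changed, 24.8% upwards and 25.4% downwards. The median of the 9 genes was 3.34 there, and that of all genes 0.03. Markers of cell types moved with M1 as well. In WT, 5 of 7 macrophage markers rose and none fell, with a mean level of 5.54 to 5.62 in Con and 6.22 to 6.45 in M1, and 4 of 7 rose in KpCKO. In WT, 2 of 3 dendritic cell markers also rose, and of 8 neutrophil markers 1 rose and 2 fell. The part of these shifts in the values was not tested. In RNA of whole cultures, fewer cells of a type and less RNA per cell cannot be told apart.

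*Nos2* encodes the inducible NO synthase. Its probe was not well above background on any Con array, at levels of −8.54 and −8.53 in WT and −8.06 and −8.32 in KpCKO. In M1 the levels were 0.44 and 0.41 in WT and −0.87 and −1.28 in KpCKO. The M1 arrays thus lay far above all Con arrays, without overlap, and the KpCKO pair lay below the WT pair. Measured against the lowest signal that counts as above background, *Nos2* was at least 164-fold higher in M1 than in Con in WT and at least 66.6-fold higher in KpCKO (limma, adjusted p = 1.79e-06 and 3.01e-06). These bounds depend on the background of the arrays and do not compare the genotypes. With a normexp correction, which adds an offset of 50 to every signal, the fitted log2 differences were only 4.51 and 3.05, still past the test (adjusted p = 0.000158 and 0.00148).

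*Gch1* encodes GTP cyclohydrolase 1, which starts the synthesis of tetrahydrobiopterin. Its levels in Con were 0.36 and 0.30 in WT and 0.58 and 0.24 in KpCKO, and in M1 they were 4.40 and 4.40 in WT and 3.75 and 3.82 in KpCKO. Con and M1 did not overlap, and within M1 both KpCKO arrays were below both WT arrays. The rise was 16.8-fold in WT (log2 4.07, SE 0.20, limma, adjusted p = 1.06e-05) and 10.4-fold in KpCKO (log2 3.38, SE 0.20, adjusted p = 3.67e-05). Its second probe rose by 3.48 and 3.11.

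*Ass1* encodes argininosuccinate synthase, which joins citrulline and aspartate, and *Asl* the lyase that releases arginine from the product. *Ass1* was at −0.30 and −0.24 in WT Con and 0.37 and 0.09 in KpCKO Con, and at 4.33 and 4.39 in WT M1 and 4.58 and 4.66 in KpCKO M1. All 4 M1 arrays were above all 4 Con arrays, and the rise was 24.8-fold in WT and 20.9-fold in KpCKO (log2 4.63 and 4.39, SE 0.15 each, limma, adjusted p = 3.6e-06 and 6.52e-06). *Asl*, the next enzyme of the same route, moved the other way and much less. Its levels went from 2.70 and 2.56 in WT Con to 2.07 and 2.01 in WT M1, and from 2.62 and 2.57 in KpCKO Con to 2.29 and 2.33 in KpCKO M1. The fall was 1.5-fold in WT (log2 −0.59, SE 0.10, limma, adjusted p = 0.00156). In KpCKO it was 1.22-fold (adjusted p = 0.0429), a call that was lost in 8 of 14 alternatives, among them without any single array of its groups (adjusted p from 0.00504 to 0.191).

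*Slc7a1* and *Slc7a2* encode the cationic amino acid transporters CAT1 and CAT2, through which arginine enters the cell. *Slc7a2* was at −3.91 and −4.02 in WT Con and −4.16 and −4.16 in KpCKO Con, and reached 2.29 and 2.86 in WT M1 and 0.70 and 1.38 in KpCKO M1. The 4 groups fell into 3 separate bands, with the Con arrays of both genotypes lowest, KpCKO M1 between and WT M1 highest. The rise was 93.1-fold in WT (log2 6.54, SE 0.21, limma, adjusted p = 3.75e-06) and 36.9-fold in KpCKO (log2 5.20, SE 0.21, adjusted p = 1.01e-05), the largest measured folds of the 10 genes in M1 beside the bounds for *Nos2*. *Slc7a1* was at −1.23 and −2.28 in WT Con and −1.11 and −2.52 in KpCKO Con, and at 1.77 and 0.21 in WT M1 and 2.06 and 1.0 in KpCKO M1. Culture 2 lay below culture 1 in all 6 groups, yet Con and M1 did not overlap. The rise was 6.71-fold in WT and 10.2-fold in KpCKO (log2 2.75 and 3.34, SE 0.18 each, limma, adjusted p = 2.73e-05 and 2.42e-05). A second, dimmer probe of *Slc7a1* rose by 1.46 and 1.09, so both probes rose but they do not give the same order of the genotypes, and the mean of both probes rose by 2.22 in KpCKO.

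*Odc1* encodes ornithine decarboxylase, the rate-limiting enzyme of polyamine synthesis, and *Sat1* the acetyltransferase that starts the breakdown and export of spermidine and spermine. *Odc1* went from 3.60 and 3.71 to 4.86 and 5.19 in WT and from 3.71 and 3.25 to 4.66 and 4.14 in KpCKO. It rose 2.58-fold in WT (log2 1.37, SE 0.25, limma, adjusted p = 0.00275, and by 0.73 under quantile normalization) and 1.89-fold in KpCKO (log2 0.92, SE 0.25, adjusted p = 0.0202). The KpCKO call was lost without 1 array, KpCKO Con of culture 2 (0.137) or KpCKO M1 of culture 1 (0.121), and under quantile normalization (0.105), and its alternatives began at 0.0104. *Sat1* went the other way, from 4.87 and 4.94 to 3.70 and 3.50 in WT and from 4.21 and 4.59 to 3.20 and 2.80 in KpCKO. Every M1 array was below every Con array, and the fall was 2.47-fold in WT and 2.65-fold in KpCKO (log2 −1.30 and −1.41, SE 0.19 each, limma, adjusted p = 0.000867 and 0.00089).

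The arginases took no part in these calls. *Arg1*, the cytosolic arginase, was well above background on all Con arrays, at −6.68 and −5.69 in WT and −6.80 and −6.53 in KpCKO. In M1 it was not well above background on any array, at −6.46 and −6.18 in WT and −7.21 and −7.80 in KpCKO, so no fold is given. The lowest signal that counts as above background was itself higher on the WT M1 arrays (−5.58 and −6.01) than on the WT Con arrays (−7.00 and −6.87). In WT the *Arg1* levels of M1 and Con overlapped. *Arg2*, the mitochondrial arginase, was at −0.85 and −1.48 in WT Con, −1.91 and −1.84 in KpCKO Con, −1.24 and −2.11 in WT M1 and −1.25 and −2.93 in KpCKO M1. M1 overlapped Con in each genotype, and the log2 difference between M1 and Con was −0.51 in WT, with a 95% confidence interval of −1.38 to 0.36 (limma, adjusted p = 0.259), and −0.21 in KpCKO (adjusted p = 0.658).

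**Figure D2:**
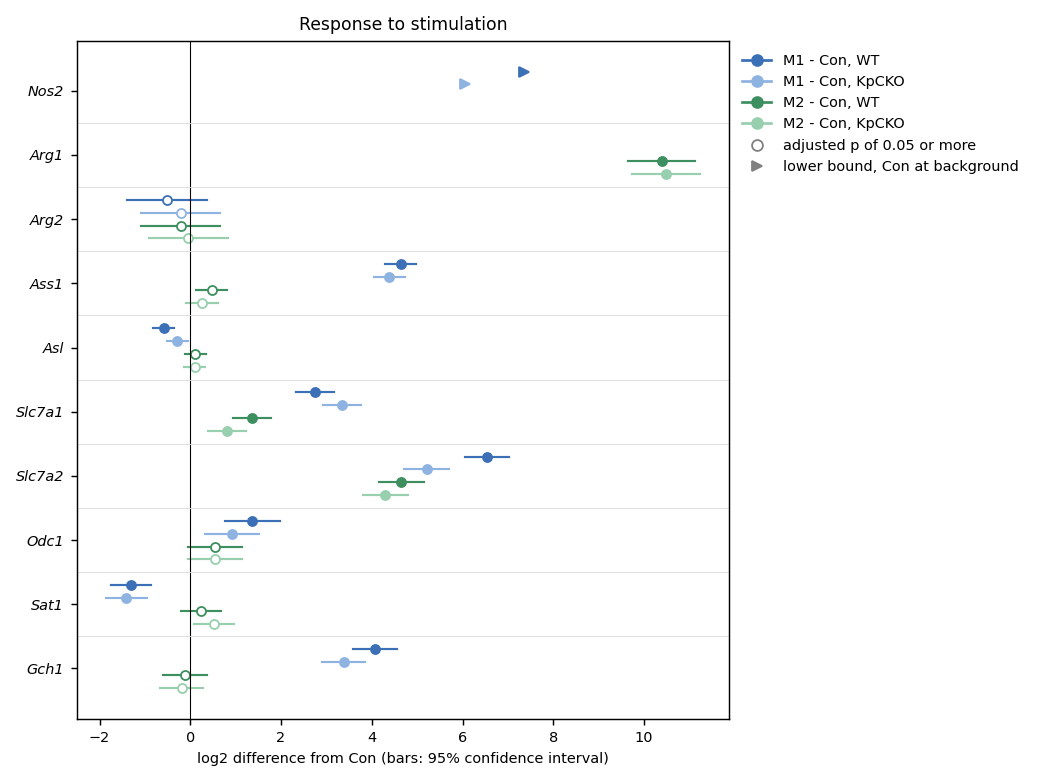
Log2 difference of M1 from Con and of M2 from Con for the 10 genes, in WT and in KpCKO, with 95% confidence intervals as bars. Filled points passed the test by limma, triangles are lower bounds on the log2 scale where Con was at background, and differences that could not be measured are left out. *Slc7a2* lies well above 0 under both stimuli, *Arg1* under M2, and *Ass1* and *Gch1* under M1.

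Of the 10 genes, 5 matched a promoter of RefSeq (GRCm38.p6), with 6 start sites in all. The 250 bases before the start are given 5′ to 3′ for the 4 genes with a motif match, all of which M1 moved. Capitals mark a match to 1 of 7 motifs searched on both strands. *Ass1* (chr2:31470020-31470269, plus strand) holds an E-box, *Slc7a1* (chr5:148399905-148400154, minus strand) a match to the antioxidant response element and, at its other start (chr5:148392816-148393065, minus strand), a gamma-activated site, *Gch1* (chr14:47189414-47189663, minus strand) an NF-κB site, and *Sat1* (chrX:155216450-155216699, minus strand), which fell, a match to the antioxidant response element.
*Ass1*: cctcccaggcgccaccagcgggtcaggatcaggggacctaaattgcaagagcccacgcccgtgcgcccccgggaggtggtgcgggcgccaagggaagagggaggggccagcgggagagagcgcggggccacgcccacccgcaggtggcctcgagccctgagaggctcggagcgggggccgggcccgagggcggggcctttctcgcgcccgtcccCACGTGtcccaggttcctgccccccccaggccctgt
*Slc7a1*, upstream start: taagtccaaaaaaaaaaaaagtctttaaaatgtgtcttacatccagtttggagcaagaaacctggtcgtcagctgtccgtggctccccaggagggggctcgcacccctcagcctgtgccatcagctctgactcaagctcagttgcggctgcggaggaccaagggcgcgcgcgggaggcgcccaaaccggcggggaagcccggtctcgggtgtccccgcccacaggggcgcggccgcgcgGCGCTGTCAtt
*Slc7a1*, downstream start: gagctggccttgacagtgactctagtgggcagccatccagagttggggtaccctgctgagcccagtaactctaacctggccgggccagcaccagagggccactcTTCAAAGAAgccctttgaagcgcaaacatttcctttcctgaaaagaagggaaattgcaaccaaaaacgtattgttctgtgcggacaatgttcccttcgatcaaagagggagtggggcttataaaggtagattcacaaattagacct
*Gch1*: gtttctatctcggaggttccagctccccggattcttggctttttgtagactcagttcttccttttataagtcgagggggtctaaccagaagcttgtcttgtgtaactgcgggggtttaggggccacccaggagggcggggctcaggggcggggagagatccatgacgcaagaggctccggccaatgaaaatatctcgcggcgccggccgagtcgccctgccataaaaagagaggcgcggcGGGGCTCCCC
*Sat1*: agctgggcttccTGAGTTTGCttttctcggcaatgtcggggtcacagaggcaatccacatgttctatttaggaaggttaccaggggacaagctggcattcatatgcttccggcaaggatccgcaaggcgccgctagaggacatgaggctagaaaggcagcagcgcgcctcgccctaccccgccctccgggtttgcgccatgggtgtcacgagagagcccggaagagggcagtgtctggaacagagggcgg
Among 32841 promoters of this length, 6.02% held the E-box CACGTG, 23% the antioxidant response element, searched as TGACNNNGC or TGAGNNNGC, 7.02% the gamma-activated site TTCNNNGAA and 3.9% the NF-κB site. The motifs with no match in the 6 windows were the STAT6-type site TTCNNNNGAA (5.85% of all promoters), the core GAAANNGAAA of the interferon-stimulated response element (2.98%) and the cyclic AMP response element TGACGTCA (1.55%). The NF-κB site of *Gch1* ends at the base before the start, and the E-box of *Ass1* lies 36 to 31 bases before it. The sixth window, of *Odc1* (chr12:17544623-17544872, plus strand), held none of the 7 motifs. These matches describe letters in a window and are no measure of binding.

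IL-4 moved fewer of these genes than LPS and IFNγ, in a background where fewer genes moved at all. In WT, *Arg1*, *Slc7a1* and *Slc7a2* rose, 3 of 9 genes, and none fell, where 16.8% of all genes changed and 8.62% rose. The same 3 genes rose in KpCKO, again 3 of 9, where 10.2% of all genes changed and 5.67% rose. The median log2 difference over the 9 genes was 0.47 in WT and 0.52 in KpCKO, and that of all genes was −0.01 and 0.01. Of 7 macrophage markers, 3 fell in WT M2 and 1 in KpCKO M2, and their part was not tested.

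*Arg1* reached levels of 4.01 and 4.39 in WT M2 and 3.69 and 3.94 in KpCKO M2, against the Con levels between −6.80 and −5.69 given above. All M2 arrays lay above all Con arrays, by more than for any of the other 9 genes. The log2 difference was 10.38 in WT and 10.48 in KpCKO, each with an SE of 0.31 (limma, adjusted p = 4.62e-05 and 4.95e-05). Over the alternatives these differences fell to as little as 7.82 and 7.63, so their size depends on the processing. The lowest signal that counts as above background was near the Con levels of *Arg1*. It was −7.00 and −6.87 on the WT Con arrays and −7.14 and −7.13 on the KpCKO ones. The levels of *Slc7a2* in M2 were 0.56 and 0.81 in WT and 0.07 and 0.20 in KpCKO. They stood above all Con arrays, and within WT below the M1 arrays. *Slc7a2* rose 25.1-fold in WT (log2 4.65, SE 0.21, limma, adjusted p = 0.000158) and 19.7-fold in KpCKO (log2 4.30, SE 0.21, adjusted p = 0.000271), although the KpCKO call was lost in a fit of only the groups compared (0.058, the highest of alternatives that began at 3.19e-05).

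*Slc7a1* was at 0.04 and −0.85 in WT M2 and −0.49 and −1.53 in KpCKO M2. The M2 arrays were above the Con array of their own culture in every case, but in KpCKO the groups overlapped across cultures. The rise was 2.55-fold in WT (log2 1.35, SE 0.18, limma, adjusted p = 0.00488) and 1.75-fold in KpCKO (log2 0.80, SE 0.18, adjusted p = 0.0355). Without the culture block these became 0.33 and 0.649, the highest of their alternatives, which began at 0.00166 and 0.0198. The KpCKO call was also lost without any single array of its 2 groups, and the second probe gave differences of 0.45 and 0.01.

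The genes of NO synthesis and citrulline recycling did not pass the test after IL-4. *Nos2* was not well above background on any M2 array, at −8.36 and −8.36 in WT and −7.55 and −8.19 in KpCKO. *Gch1* was at −0.03 and 0.45 in WT M2 and 0.39 and 0.05 in KpCKO M2, overlapping Con, with log2 differences of −0.12 and −0.19. *Ass1* was at 0.06 and 0.34 in WT M2 and 0.36 and 0.62 in KpCKO M2. In WT both its M2 arrays lay above both Con arrays, with a log2 difference of 0.47, a 95% confidence interval of 0.13 to 0.81 and an adjusted p of 0.0704 by limma, which fell under the threshold in 2 of 14 alternatives (range 0.0408 to 0.335). The mean level of *Asl* in M2 stayed within 0.11 of its Con mean in both genotypes.

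The polyamine genes did not pass the test after IL-4 either. *Odc1* was at 3.98 and 4.41 in WT M2 and 4.04 and 4.02 in KpCKO M2, above Con in every culture, with log2 differences of 0.54 and 0.55 (limma, adjusted p = 0.191 and 0.218). A second, dimmer probe of *Odc1* gave larger differences of 0.88 and 0.76, and was not tested alone. *Sat1* was at 5.25 and 5.02 in WT M2 and 4.88 and 4.96 in KpCKO M2, again above Con in every culture, by 0.23 and 0.52 (adjusted p = 0.445 and 0.134). *Arg2* was at −0.78 and −1.96 in WT M2 and −1.35 and −2.49 in KpCKO M2, which overlapped Con. Its second-culture array was the lower of the pair in 5 of the 6 groups.

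Set directly against each other in WT, the 2 stimuli gave unlike levels for 9 of the 10 genes, where 63.0% of all genes differed, 33.7% higher in M1 and 29.3% lower. *Nos2* was at least 140-fold higher in M1, *Gch1* 18.2-fold, *Ass1* 17.9-fold, *Slc7a2* 3.71-fold, *Slc7a1* 2.63-fold and *Odc1* 1.78-fold. *Arg1* was at least 1018-fold lower in M1 than in M2, *Sat1* 2.89-fold and *Asl* 1.62-fold. With normexp the fitted log2 differences of *Nos2* and *Arg1* were 3.67 and −7.31. *Slc7a2* is the member that both stimuli raised over 10-fold, and the difference between them was itself past the test (log2 1.89, SE 0.21, limma, adjusted p = 0.00024). *Arg2* did not pass it (log2 −0.30, adjusted p = 0.499). The median was 1.11 over the 10 genes and 0.09 over all genes. For *Odc1* the second probe gave a log2 difference of 0.49, against 0.83 for the brightest. The call for *Odc1* (adjusted p = 0.0238) was lost without the WT M1 array of culture 2 (0.141), without the WT M2 array of culture 1 (0.158) and under quantile normalization (0.338, the highest of alternatives that began at 0.0132), and that for *Slc7a1* without the culture block (0.145, from 0.000155). M1 and M2 lay on different slides with different scan times.

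The genotypes differed in M1 for the synthase and 1 transporter. *Nos2* and *Slc7a2* were lower in M1 cells of KpCKO mice, 2 of 9 genes, where 16.0% of all genes differed and 8.58% were lower, although under quantile normalization more genes were higher (2030) than lower (1352). The 9 genes had a median log2 difference of −0.60, against −0.09 over all genes. *Nos2* was lower by 1.31 in culture 1 and 1.68 in culture 2 on the log2 scale, and neither KpCKO array overlapped the WT pair. The mean difference was −1.50 (SE 0.18), a 2.82-fold lower level, with a 95% confidence interval of −1.92 to −1.08 (limma, adjusted p = 0.00458). *Slc7a2* was lower by 1.59 and 1.48, likewise without overlap, with a mean of −1.53 (SE 0.21), a 2.90-fold lower level, and an interval of −2.02 to −1.04 (limma, adjusted p = 0.007). The intervals of *Nos2* and *Slc7a2* cover much the same sizes. With a normexp background correction the adjusted p of *Nos2* was 0.135, and in a fit of the compared groups alone it was 0.159 for either gene, the highest of alternatives that began at 0.00414 for *Nos2* and 0.00244 for *Slc7a2*.

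**Figure D3:**
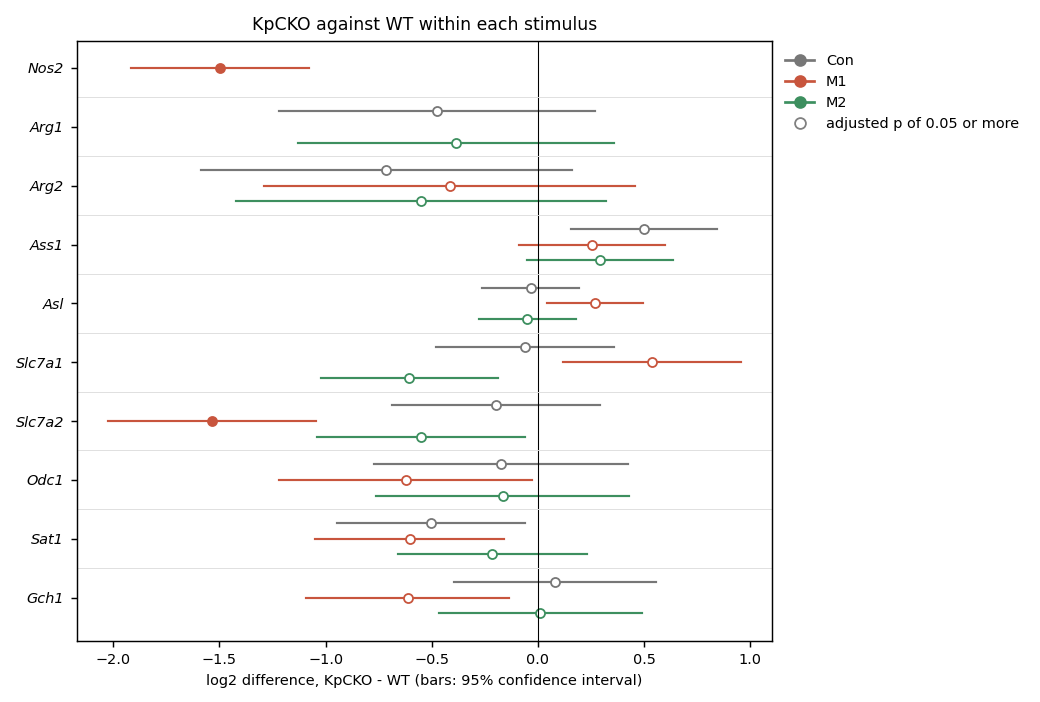
Log2 difference of KpCKO from WT for the 10 genes in Con, M1 and M2, with 95% confidence intervals as bars. Filled points had an adjusted p under 0.05 in limma, and groups at background are left out. In M1, *Nos2* at −1.50 and *Slc7a2* at −1.53 stand apart from the other genes, whose means lie between −0.62 and 0.54.

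The other 7 genes of the M1 comparison did not pass the test, which leaves differences of the sizes their intervals cover. *Gch1* differed by −0.61, with an interval of −1.09 to −0.14 (limma, adjusted p = 0.0821), *Sat1* by −0.60, with an interval of −1.05 to −0.16 (0.0704), and *Odc1* by −0.62, with an interval of −1.22 to −0.03 (0.134). *Gch1* and *Sat1* were lower on both KpCKO arrays than on both WT arrays, whereas for *Odc1* the cultures gave −0.19 and −1.05. *Slc7a1* differed by 0.54 with an interval of 0.12 to 0.96 (0.0818), and its second probe gave −0.10. *Asl* was higher on both KpCKO arrays, by 0.27 (0.0999), as was *Ass1*, by 0.26 (0.255). *Arg2* gave −0.42 with an interval of −1.29 to 0.46 (0.46), and *Arg1* was not above background in M1. Of the NO synthesis route, *Nos2* and *Gch1* had negative and *Ass1* and *Asl* positive ones, although *Nos2* alone of these 4 passed the test.

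Markers of cell types moved in the same comparison. Of 7 macrophage markers, 4 were lower in KpCKO M1 and none higher, *Cd14* by −1.33 (limma, adjusted p = 0.00186), *Fcgr1* by −1.20 (0.0305), *Itgam* by −0.65 (0.0139) and *Adgre1* by −0.39 (0.0407). The mean level of the 7 was 6.22 to 6.45 on the WT M1 arrays and 5.57 to 5.86 on the KpCKO M1 arrays. In WT, 5 of the 7 had themselves risen from Con to M1 and none had fallen. Their levels are therefore no fixed measure of macrophage number. These 7 include *Lyz2*, the lysozyme M gene, whose locus drives the Cre in KpCKO, and its part in the mean was not tested. The 5 stromal markers had a mean of 1.48 to 1.51 in WT M1 and 0.52 to 1.35 in KpCKO M1. *Xcr1*, a dendritic cell marker, was lower too, and no tested marker of neutrophils, T cells, B cells or mast cells passed the test. *Elane*, *Cd3d*, *Cd8a*, *Ms4a1* and *Alas2* were not above background in any group. The part of these shifts in the values of *Nos2* and *Slc7a2* was not tested.

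In Con and in M2 none of the 9 genes measured passed the test between genotypes, where 2.21% and 1.93% of all genes did, and 2 of the 9 had an unadjusted p under 0.05 in each, where 14.1% and 14.3% of all genes did. The medians of the 9 genes were −0.17 in Con and −0.21 in M2, against 0.00 and 0.02 over all genes. In Con, *Ass1* was higher on both KpCKO arrays by a mean of 0.50, with an interval of 0.16 to 0.85 (limma, adjusted p = 0.171), and *Sat1* lower on both by 0.50, with an interval that ends at −0.06 (0.288). *Slc7a2*, the gene that differed in M1, gave −0.20 in Con with an interval of −0.69 to 0.29 (0.799). In M2 its difference was −0.55 and both KpCKO arrays lay below both WT arrays (0.293). *Slc7a1*, whose M1 difference was positive, gave −0.61 in M2 with an interval of −1.03 to −0.19 (0.184). *Arg1* differed by −0.48 in Con, with an interval of −1.22 to 0.27 (0.607), and by −0.38 in M2, with an interval of −1.13 to 0.36 (0.664). At its level in M2 these arrays therefore leave room for a fall of *Arg1* by up to 1.13 on the log2 scale.

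Averaged over the 3 conditions, *Slc7a2* and *Sat1* were lower in KpCKO and *Ass1* was higher, 3 of 8 genes, where 17.2% of all genes differed, 8.61% upwards and 8.54% downwards. Each average, here and below, rests on 2 mice of a genotype. The main fit counts the 3 arrays of a mouse as separate, so its SE and p do not measure the spread between mice alone. *Slc7a2* differed by −0.76 (SE 0.12, limma, adjusted p = 0.00742) and remained past the test in 21 of 21 alternatives, with 0.0293 as the highest adjusted p. *Sat1* differed by −0.44 (SE 0.11, adjusted p = 0.0352) and was lower in KpCKO on every slide and in both cultures. *Ass1* differed by 0.35 (SE 0.08, adjusted p = 0.0326) and was higher in every such pair. The calls of *Sat1* and *Ass1* were lost in 12 and 14 of 21 alternatives, mostly with 1 array left out, at adjusted p of up to 0.102 and 0.0954. *Nos2* and *Arg1* are not averaged, since some of their groups were at background. The 8 genes had a median of −0.25, against −0.02 over all genes. The mean level of the macrophage markers, again with *Lyz2* among them, was also lower in KpCKO than in WT in Con (5.05 to 5.17 against 5.54 to 5.62) and in M2 (4.63 to 4.65 against 4.89 to 4.97). In the averaged comparison 4 of 7 macrophage markers were lower, the stromal marker *Dcn* was lower (log2 −2.72) and the neutrophil marker *Mpo* was higher (1.06). The part of these shifts was not tested.

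Whether the response itself differed between the genotypes was tested with an interaction term. None of the 8 genes measured passed it for M1, where 0.0715% of all genes did, and none of 9 for M2, where 0.00894% did. For M1, 3 of the 8 had an unadjusted p under 0.05, where 16.4% of all genes did, and for M2 none of 9 had, where 2.01% did. *Slc7a2* rose less in KpCKO than in WT by 1.33 in culture 1 and 1.34 in culture 2, a mean of −1.34 (SE 0.29) with an interval of −2.03 to −0.64 (limma, adjusted p = 0.146). *Gch1* gave −0.69 (0.296) and *Slc7a1* 0.60 (0.301). The lower *Slc7a2* in KpCKO M1 is therefore not shown to exceed the difference in Con once all genes are adjusted for. For *Nos2* no such term is given, because both Con groups were at background. The medians were −0.17 for M1 and −0.02 for M2, against −0.07 and 0.02 over all genes.

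Around the 10 genes, a list of 46 others covers the rest of the pathway, of which 43 were matched to a probe and 37 passed the filter on dim probes. In WT M1, 29 of the 37 changed, 11 upwards and 18 downwards, with a median log2 difference of −0.61, where 63.2% of all genes changed, 34.5% upwards and 28.7% downwards, with a median of 0.13. By role, the genes of NO synthesis and its cofactor gave 1 higher and 7 lower of 11, those of arginine transport and metabolism 6 higher and 5 lower of 12, and those of polyamine synthesis, breakdown and control 4 higher and 6 lower of 14. The largest rise was that of *Azin2*, by 1.84 (limma, adjusted p = 0.000292). It encodes an antizyme inhibitor but was counted here under arginine transport and metabolism. The next was that of *Aldh18a1*, the first enzyme of proline and ornithine synthesis from glutamate, by 1.64 (0.00124). The largest falls were those of *Paox*, the polyamine oxidase, by −2.98 (3.45e-05), and *Atp13a2*, a lysosomal polyamine exporter, by −2.84 (3.97e-05). *Paox* and *Sat1*, which act one after the other in polyamine breakdown, thus both fell. *Gch1* rose while *Spr*, the sepiapterin reductase that ends the same cofactor route, fell by 1.31 (8.7e-05). In KpCKO M1, 24 of the 37 changed, 9 upwards and 15 downwards, with a median of −0.33, where 50.2% of all genes changed.

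After IL-4, 7 of the 37 changed in WT, 5 upwards and 2 downwards, and 4 in KpCKO, all upwards, shares near the 16.8% and 10.2% of all genes that changed. *Azin2* rose 9.06-fold in WT and 6.49-fold in KpCKO (limma, adjusted p = 0.000547 and 0.00135). *Gatm*, the first enzyme of creatine synthesis from arginine, rose 8.85-fold and 9.25-fold (7.91e-05 and 8.81e-05). The KpCKO calls of both were lost in a fit of only the groups compared (0.064 each, the highest of their alternatives, from 0.000326 for *Azin2* and 5.06e-06 for *Gatm*). Its mean level was 1.08 in WT Con, 2.71 in WT M1 and 4.23 in WT M2, so that, like *Slc7a2*, it was raised by both stimuli, but more by IL-4. *Srm*, the spermidine synthase gene, rose in both genotypes as well, by 1.29 and 0.91 (0.0078 and 0.0328), and is named after its values were seen, as is the rise of *Azin2* and *Gatm* here. None of the 11 genes of NO synthesis and its cofactor passed the test in M2 in either genotype.

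**Figure D4:**
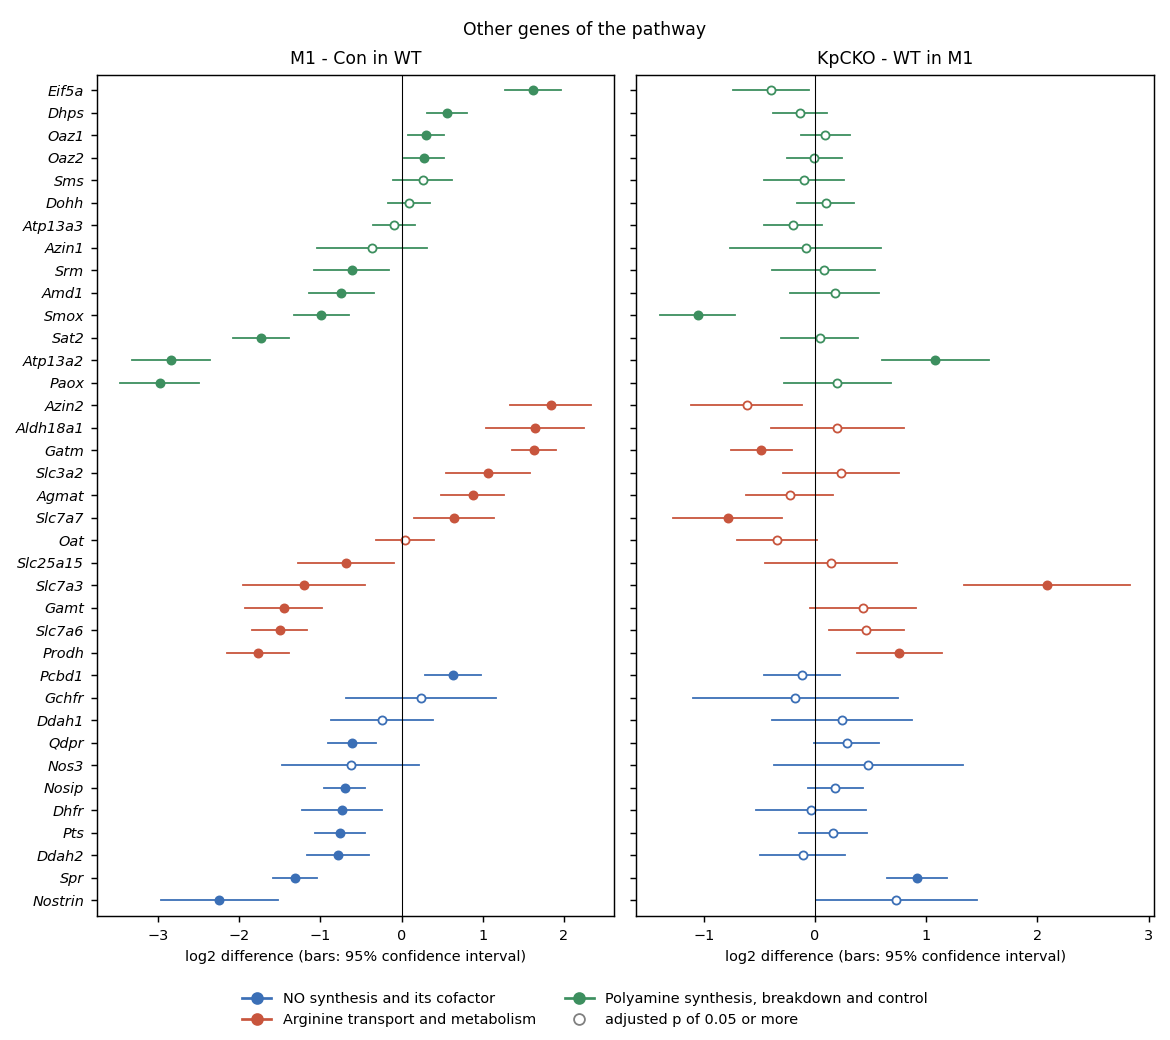
Log2 difference of M1 from Con in WT (left) and of KpCKO from WT in M1 (right) for the 37 other genes of the pathway, coloured by role, with 95% confidence intervals as bars. Filled points passed limma's test at an adjusted p of 0.05. On the left 11 genes are filled above 0 and 18 below, and on the right 4 above and 3 below.

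Between the genotypes, 7 of the 37 genes differed in M1, 4 higher and 3 lower in KpCKO, with a median of 0.09, a share near the 16.0% of all genes. *Slc7a3*, a further cationic amino acid transporter gene (CAT3), was higher in KpCKO, opposite to *Slc7a2*. Its mean level was −5.00 in WT M1 and −2.91 in KpCKO M1, a log2 difference of 2.09 (SE 0.32, limma, adjusted p = 0.00993). The WT M1 level was near the lowest signal that counts as above background, −5.58 and −6.01 on those arrays. In Con the difference was 1.21 (0.129), in M2 1.53 (0.0753) and averaged over all conditions 1.61 (0.00214), which held in 21 of 21 alternatives. With normexp the M1 difference was 0.89 and its call was lost (0.126), as in a fit of only the groups compared (0.164, the highest of alternatives from 0.00413), and the average was 0.77 (0.0298). *Slc7a7*, which encodes a light chain of the exchanger system y+L, was lower by 0.79 in M1 (adjusted p = 0.046, lost in 9 of 14 alternatives) and by 0.64 on average (0.0142, held in 21 of 21).

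*Smox*, the spermine oxidase gene, was the only one of the 37 to differ in Con, by −0.88 (limma, adjusted p = 0.0329), and it also differed in M1, by −1.06 (0.00718), with −0.78 in M2 (0.0506) and −0.91 on average (0.00103). Without the culture block these became 0.667, 0.193, 0.759 and 0.0683, the highest of their alternatives, and the Con call was also lost without any single Con array. *Spr* was higher in KpCKO M1 by 0.92 (SE 0.11, adjusted p = 0.00535), where it had fallen by 1.31 in WT and by 0.43 in KpCKO. *Atp13a2*, which also fell less in KpCKO, was higher by 1.08 (0.0184), and *Prodh*, the proline dehydrogenase gene, by 0.76 (0.0267). *Gatm* was lower by 0.48 (0.0354). Without a single array the calls of *Atp13a2*, *Prodh* and *Gatm* in M1 were lost, at adjusted p of up to 0.0945, 0.143 and 0.172, whereas that of *Spr* held, at up to 0.0401. In M2 none of the 37 differed between the genotypes, and neither interaction term was past the test for any of those given.

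The genes whose levels ran most like those of *Nos2* over the 12 arrays, of 14457 genes with a symbol, were *Mafk* (Pearson r = 0.998), *Usp12* (0.997) and *Dst* (0.997). *Mafk* encodes a small Maf protein, a partner with which Nrf2 binds DNA, *Usp12* a deubiquitinase and *Dst* the cytoskeletal linker dystonin. The mean level of *Mafk* was −0.12 in WT Con, 2.13 in WT M1 and −0.02 in WT M2, and 0.07, 1.72 and 0.12 in KpCKO. Its M1 mean was the lower of the pair in KpCKO, and in M2 it was near its Con level. *Mafk* was picked for this likeness to *Nos2*, so the likeness is no separate result. *Nos2* itself was not well above background on any Con or M2 array. For *Arg1* the most alike were *Cdh1* (r = 0.986), which encodes E-cadherin, *Retnla* (0.985), the gene of the secreted protein Fizz1, and *Plekhf1* (0.984). *Retnla* and *Cdh1* were above background in M2 alone, at mean levels of 5.65 and 0.59 in WT and 4.41 and −0.32 in KpCKO. The 12 arrays share 6 groups and 4 mice, so these correlations mainly follow the contrast between stimuli and are given as a description.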

How the data were processed

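The 12 BMDM samples were measured on 1-colour Agilent mouse arrays (Cy3). The intensity of each spot, with background subtracted by Agilent Feature Extraction and with quality flags, was deposited by the authors per array, unscaled between arrays. They also deposited a matrix of log2 values, which on 40749 shared probes equal the log2 intensity less the 75th percentile of its array, centred per probe (slopes 0.999623 to 1.00036, column medians −0.07 to 0.31).

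Outlier spots were dropped, spots of a probe averaged, and log2 intensities set relative to the 75th percentile of the array. No spot was saturated. Of 41174 probes, 26690 matched 18217 gene symbols by accession in a RefSeq table, and the others kept their identifier. The 10 genes had 14 probes, and the brightest by its mean over the 12 arrays stood for a gene. A gene was kept if 1 group or more had both arrays well above background, which left 22385 genes, 22366 of them testable. limma 3.58.1 in R 4.3.3 fitted 1 model with the 6 groups and the culture (5 residual and 1.92 prior degrees of freedom), and p was adjusted over all genes by the Benjamini-Hochberg method in each of 11 comparisons. The script was tested on simulated data. A fold against a group not above background on any array is a lower bound, taken against the higher of the probe's own signal and the lowest signal of probes well above background on each array.

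Cultures pair the samples: the design text of the series gives 2 cultures, each with 1 mouse of either genotype, and the replicate numbers match the sex in the labels. Deviations from the group means correlated between groups of a culture at 0.162 to 0.597 in 15 pairs (median 0.342). With 2 arrays a group, an exact permutation test cannot go below p = 0.333, so none was run, and p-values rest on limma's pooled spread. The 10 genes and the lists were chosen with earlier results of these data known. Of the other pathway genes, those past the test between genotypes and the 2 largest rises and falls in WT M1 are named. Alternatives were quantile normalization, normexp (offset 50), the authors' matrix, other filters, the mean of probes, no block, mouse as a random block, only the groups compared, trended variances, the unpaired test of the study's methods (not among the alternatives counted beside single genes) and each array left out. For genes outside the 10 they were added after seeing the data.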

Additional observations from a re-analysis of the deposited data

How the results depend on the processing

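Over 24 alternatives, of which 12 left out 1 array each, 1536 of 1632 values of the 10 genes stayed on their side of the threshold, 87 lost the call, 9 gained it and 0 turned the direction of a call, while 49 of the 1536 changed sign without being called. The 1536 include values that were uncalled in the main fit and stayed so, and are no measure of how often calls held. Without the culture block the members called were 8 and 7 for M1 against Con in WT and KpCKO, where 52.9% and 38.9% of all genes were called. In M1 between genotypes they were still 2, where 5.32% of all genes were called, with *Nos2* at an adjusted p of 0.0109 by limma and *Slc7a2* at 0.0167. *Slc7a1* lost its M2 calls (0.33 and 0.649) and its difference between M1 and M2 (0.145), *Asl* its call in KpCKO M1 (0.0842) and *Ass1* its average (0.0569), as given above. With normexp, 1 member differed between genotypes in M1 and 1 on average, where 4.24% and 8.06% of all genes did. With no filter on dim probes 1 differed on average, where 9.03% of all genes did. In fits of only the groups compared, which leave few degrees of freedom, 1 was called for M2 in KpCKO and 0 for the genotypes in M1. Of all genes, 0.00447% and 0% were called in these 2 fits. The unpaired test of the study's methods, adjusted over all genes, called 4 and 0 members for M1 in WT and KpCKO, where 13.2% and 0% of all genes were called. It called 0 and 0 for M2, where 0.00897% and 0% were called, and 5 for M1 against M2, where 11.9% were. For the genotypes in M1 it called 0 members and 0% of all genes. At its unadjusted threshold it called 4 members there, where 12.3% of all genes passed. Fits with 1 array left out leave 1 array in a group, so counts of members per comparison are not given for them. The mouse as a random block had an estimated correlation of −0.0506. Quantile normalization moved the median of all genes in WT M1 from 0.13 to −0.08 and normexp to 0.40, so differences of that size depend on the scaling.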
